A study of Mus musculus with 8 samples.

Results

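Malat1, Neat1, Meg3 and Kcnq1ot1 are long non-coding RNAs (lncRNAs) that stay in the nucleus, and single-nucleus sequencing therefore samples them where they are. They were chosen by gene symbol, and each of the 4 symbols matched 1 of the 32285 gene rows of the count matrices: Malat1 (ENSMUSG00000092341), Neat1 (ENSMUSG00000092274), Meg3 (ENSMUSG00000021268) and Kcnq1ot1 (ENSMUSG00000101609). Kidney nuclei of 8 male mice were profiled by single-nucleus RNA-seq, with 2 mice in each of the groups Ctrl_ZT4, Ctrl_ZT16, cKOt_ZT4 and cKOt_ZT16. Ctrl mice were Bmal1lox/lox, and cKOt mice were Bmal1lox/lox/Pax8-rtTA/LC-1 littermates, in which the Pax8 promoter and doxycycline drive Cre recombinase in renal tubules and other kidney cells are not targeted. All mice were C57BL/6J and both genotypes drank doxycycline (2 mg/ml, with 20 mg/ml sucrose) for 2 weeks from 8 weeks of age. Kidneys were taken at 14 weeks of age, 4 h (ZT4, light, resting phase) or 16 h (ZT16, dark, active phase) after lights on in a cycle of 12 h light and 12 h dark, and slices of cortex and medulla went into the isolation of DAPI-sorted nuclei.

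Malat1 gathers in nuclear speckles, bodies rich in splicing factors, and Neat1 is the scaffold of paraspeckles, which form around its long isoform together with the proteins Nono, Sfpq and Pspc1. Meg3 is transcribed from the maternal allele of the imprinted Dlk1-Dio3 cluster, in a unit that continues into Rian and Mirg. Kcnq1ot1 is transcribed from the paternal allele, antisense within Kcnq1, and silences neighbours such as the growth inhibitor Cdkn1c in cis. Neat1 is also known as a gene that many kinds of cellular stress induce.

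In GRCm38 coordinates Malat1 lies at chr19:5795690-5802672 on the minus strand and Neat1 nearby at chr19:5824708-5845480, while Meg3 lies at chr12:109540996-109571729 on the plus strand. Kcnq1ot1 lies at chr7:143213111-143296547 on the minus strand, within Kcnq1 (chr7:143106877-143427050). All 4 are annotated as lncRNA genes, so their exons hold no coding sequence or UTR. The assay primes on runs of A and counts 3′ ends. The annotated ends of the longest transcripts, or for Neat1 the short isoform, are shown. Runs of at least 10 A also lie inside transcripts, 10 in Kcnq1ot1-201 (longest 41 A, at base 69565) and 6 in Meg3-209 (longest 16 A, at base 420). Which site was primed cannot be read from sums per gene. The last 60 bases from GENCODE vM39 (GRCm39) are given 5′ to 3′ with the polyadenylation signal AATAAA in capitals.
Malat1-201, bases 7827 to 7886: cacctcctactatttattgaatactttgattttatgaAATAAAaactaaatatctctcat
Neat1-202, bases 2955 to 3014: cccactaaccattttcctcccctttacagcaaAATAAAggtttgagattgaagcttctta
Meg3-209, bases 14489 to 14548: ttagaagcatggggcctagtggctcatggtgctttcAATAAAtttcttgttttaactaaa
Kcnq1ot1-201, bases 93033 to 93092: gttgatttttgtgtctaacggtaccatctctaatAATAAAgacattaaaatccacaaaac
The signal is present in the last 60 bases of 46.66% of all annotated lncRNA transcripts, so its presence is not particular to these genes.

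Malat1 and the long isoform of Neat1 also share an end that is made by cleavage before a tRNA-like element and not by polyadenylation, and their A-rich tract folds with U-rich stretches into a triple helix. The stretches that hold both parts are shown with the longest run of bases that they share upstream of the tract, 16 bases, in capitals.
Malat1-201, bases 7504 to 7593: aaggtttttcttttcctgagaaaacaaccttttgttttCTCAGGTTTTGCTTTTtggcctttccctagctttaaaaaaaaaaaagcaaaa
Neat1-201, bases 22308 to 22397: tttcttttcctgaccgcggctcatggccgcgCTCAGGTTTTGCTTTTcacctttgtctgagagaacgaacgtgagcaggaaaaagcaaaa
The shared 16 bases occur in 6 of 481956 annotated transcripts, which belong to Malat1, Neat1 and Fstl4. Malat1 holds a run of 12 A at base 7576, and the annotated end of Malat1-201 lies 293 bases beyond the tract. The last 60 bases of Malat1-201 shown above therefore lie beyond the end made by this cleavage. Neat1-201 ends with the tract and has no AATAAA in its last 60 bases. The deposited values are sums per gene, so UMIs of the short and the long Neat1 isoform cannot be told apart.

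After filtering, 81391 of 82784 barcodes were kept, with 36548873 to 54500820 UMIs (unique molecular identifiers, 1 per captured transcript) per library and a median of 3003.5 to 4830 per nucleus. Pairs of libraries shared 18 to 42 barcode sequences. Clusters built on protein-coding genes alone, without the 4 lncRNAs, gave 24 classes that are named here by their markers and hold 96.1% of the nuclei. They are called like the cell type whose markers they carry: endothelium (Vasc), mesangial cells and pericytes (Mes/Per), smooth muscle and juxtaglomerular cells (SMC/JGC), podocytes (Podo), convoluted and straight proximal tubule (PCT, PST, and PCT/PST for clusters with markers of both), thin descending and thin ascending limb (thinDL, thinAL), thick ascending limb (TAL), macula densa (MD), distal convoluted tubule (DCT1, DCT2), connecting tubule (CNT), cortical and medullary collecting duct (CCD, MCD), intercalated cells (aIC, bIC), urothelium (UT), myeloid cells (Myel), B cells (BC), T and NK cells (TC/NK), adipocytes and Schwann cells. Arntl (Bmal1), the targeted gene, was higher in cKOt than in Ctrl kidneys at ZT4 (log2 difference 2.82, SE 0.19, adjusted p = 0.000329 by edgeR). UMIs read at the 3′ end need not fall in the deleted part, so this level is no check of the deletion.

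The 4 lncRNAs made up 12.9% of all nuclear UMIs and 80.6% of the UMIs of all lncRNAs. Nearly all of this was Malat1, which ranked first among all genes with 47695418 of 377783776 UMIs. Neat1 ranked second among lncRNAs and 11th among all genes (822916 UMIs), and Kcnq1ot1 ranked 8th among lncRNAs (160373 UMIs). Meg3 did not belong with them in abundance: it had 1539 UMIs in all and ranked 1060 of the 8078 lncRNAs with a UMI. Per kb of gene span, Malat1 reached 18106 ± 1444 CPM (UMIs scaled to the library total), Neat1 106 ± 22.0, Kcnq1ot1 5.08 ± 0.215 and Meg3 0.134 ± 0.0468 (mean ± SD, n = 8 libraries). The assay counts 3′ ends, so UMIs need not grow with gene span, and the values per kb are no measure of abundance. Malat1 was found in 100% of nuclei, Neat1 in 90.8 ± 1.56%, Kcnq1ot1 in 65.2 ± 3.64% and Meg3 in 0.708 ± 0.146%. A background share from RNA outside the nuclei was not measured, so a UMI need not come from the nucleus it was counted in. The other lncRNAs among the 10 with most UMIs were Gm42397, Mir99ahg, Lncpint, Hnf4aos, 9530026P05Rik, Gm19950 and Dleu2, each below Neat1.

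Over all nuclei, the Malat1 share of UMIs was 13.3 and 11.1% in the Ctrl_ZT4 libraries, 13.2 and 13.8% in cKOt_ZT4, 12.1 and 11.3% in Ctrl_ZT16 and 12.9 and 13.4% in cKOt_ZT16. The Ctrl and cKOt libraries overlapped, because 1 Ctrl_ZT4 library was as high as the cKOt libraries. Malat1 was 0.23 higher in cKOt than in Ctrl on the log2 scale, averaged over both time points (SE 0.16, adjusted p = 0.735), and differed by -0.05 between ZT16 and ZT4 in Ctrl (SE 0.23). Neat1 took 0.210 and 0.146% in Ctrl_ZT4, 0.296 and 0.183% in cKOt_ZT4, 0.216 and 0.259% in Ctrl_ZT16 and 0.237 and 0.208% in cKOt_ZT16. Replicates of Neat1 lay as far apart as the groups. Kcnq1ot1 varied least for its level, between 0.0397 and 0.0453% in the 8 libraries. Meg3 was counted 136 and 210 times in Ctrl_ZT4, 320 and 189 times in cKOt_ZT4, 236 and 148 times in Ctrl_ZT16 and 142 and 158 times in cKOt_ZT16, and 94 of the 320 UMIs came from 1 nucleus. In sums over all nuclei, fewer cells of a type and less RNA per cell cannot be told apart.

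**Figure D1:**
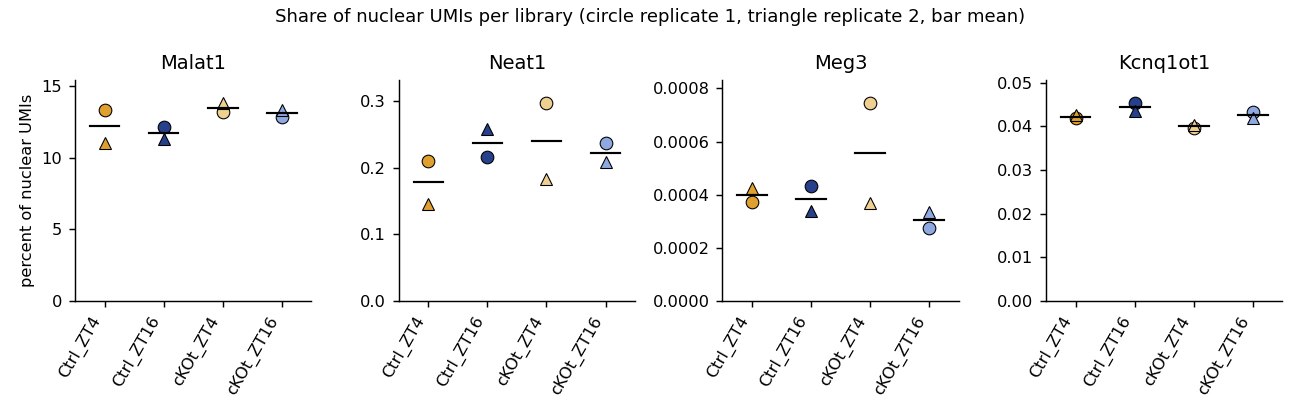
Percent of nuclear UMIs of each lncRNA in each of the 8 libraries (points), by group. Malat1 lies between 11.1 and 13.8% and Kcnq1ot1 between 0.0397 and 0.0453%, and for no lncRNA do the points of 1 genotype or 1 time point stand clear of the other.

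None of the 4 lncRNAs passed the test in any of the 7 contrasts over all nuclei (edgeR quasi-likelihood test, 28 tests, adjusted p under 0.05 over all genes tested). Of all genes tested, 0.208% passed for ZT16 against ZT4 in Ctrl, 0.00955% for the same in cKOt, 0.446% for cKOt against Ctrl at ZT4, 0.143% at ZT16, 0.891% for the mean time effect, 0.988% for the mean genotype effect and 0.0139% for the interaction of the 2 factors. By unadjusted p, 1 of the 28 tests lay under 0.05, Meg3 between time points in cKOt (log2 -0.87, SE 0.32, adjusted p = 0.462). It was -0.27 without cKOt_ZT4 replicate 1 and -0.72 without the 2 nuclei richest in Meg3. For Neat1 the time difference was 0.43 (SE 0.26, adjusted p = 0.638, and 0.19 to 0.73 with 1 library left out) in Ctrl and -0.11 (SE 0.26) in cKOt, and cKOt exceeded Ctrl at ZT4 by 0.51 (SE 0.26, adjusted p = 0.656). The latter rested on single libraries: Neat1 differed by 0.10 without cKOt_ZT4 replicate 1, 0.27 without Ctrl_ZT4 replicate 2, 0.81 without Ctrl_ZT4 replicate 1 and 0.82 without cKOt_ZT4 replicate 2. For Kcnq1ot1 the time difference was 0.08 in Ctrl and 0.09 in cKOt (SE 0.11 each). DESeq2 called none of them either, and the lowest adjusted p of any member under any alternative was 0.156. In simulated data of this size, with 1 common spread for all genes, 7 of 100 genes changed 1.5-fold and 50 of 100 changed 2-fold were called between the time points in Ctrl. A moderate change need therefore not have been called. The SE differed between the 4 lncRNAs, so these counts do not give the power for any 1 of them.

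The Malat1 share differed between cell types far more than between mice. It was highest in thinAL, 21.8 ± 2.76% (n = 8), then in MCD (18.4 ± 1.52%) and DCT1 (18.1 ± 1.36%), and lowest in TC/NK (6.11 ± 0.781%) and Myel (6.33 ± 0.469%). DCT2 reached 16.4 ± 1.72% and bIC 15.8 ± 0.859%, PCT, the most frequent class, 13.6 ± 1.14%, TAL 11.6 ± 0.857%, PST 9.92 ± 0.998%, Mes/Per 8.79 ± 1.04% and Vasc 8.45 ± 0.840%. The thinAL libraries held 22.7 and 20.2% in Ctrl_ZT4, 24.5 and 24.8% in cKOt_ZT4, 19.3 and 17.0% in Ctrl_ZT16 and 22.4 and 23.6% in cKOt_ZT16, while the TC/NK libraries lay between 5.06 and 7.58%. No library of the one overlapped with a library of the other. The thinAL class is cluster 18 (1704 nuclei), and an unnamed cluster of 2000 nuclei whose best list was thinAL is not part of it. Of the 23 pairs of neighbours in this order, 4 differed by more than the SD of the difference within libraries. DCT1 exceeded DCT2 by 1.73 ± 0.570 percentage points and bIC exceeded CNT by 2.04 ± 0.811, both in 8 of 8 libraries, whereas MCD and DCT1 could not be ordered (0.276 ± 1.75, MCD higher in 4 of 8).

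The classes differ in depth, and the order was therefore read among nuclei of like depth. Between 4000 and 8000 UMIs per nucleus, Malat1 made up 22.2% in thinAL, 18.9% in MCD, 18.3% in DCT1, 13.8% in PCT, 11.4% in TAL and 10.3% in PST. Between 2000 and 4000 UMIs, thinAL held 21.8%, Mes/Per 8.70%, Vasc 8.25% and Myel 5.82%. Within thinAL, 1 in 10 nuclei lay below 13.1% and 1 in 10 above 29.2%. Between the genotypes thinAL was 0.33 higher in cKOt on the log2 scale (SE 0.12, adjusted p = 0.444), and Malat1 passed the test in no class and contrast.

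**Figure D2:**
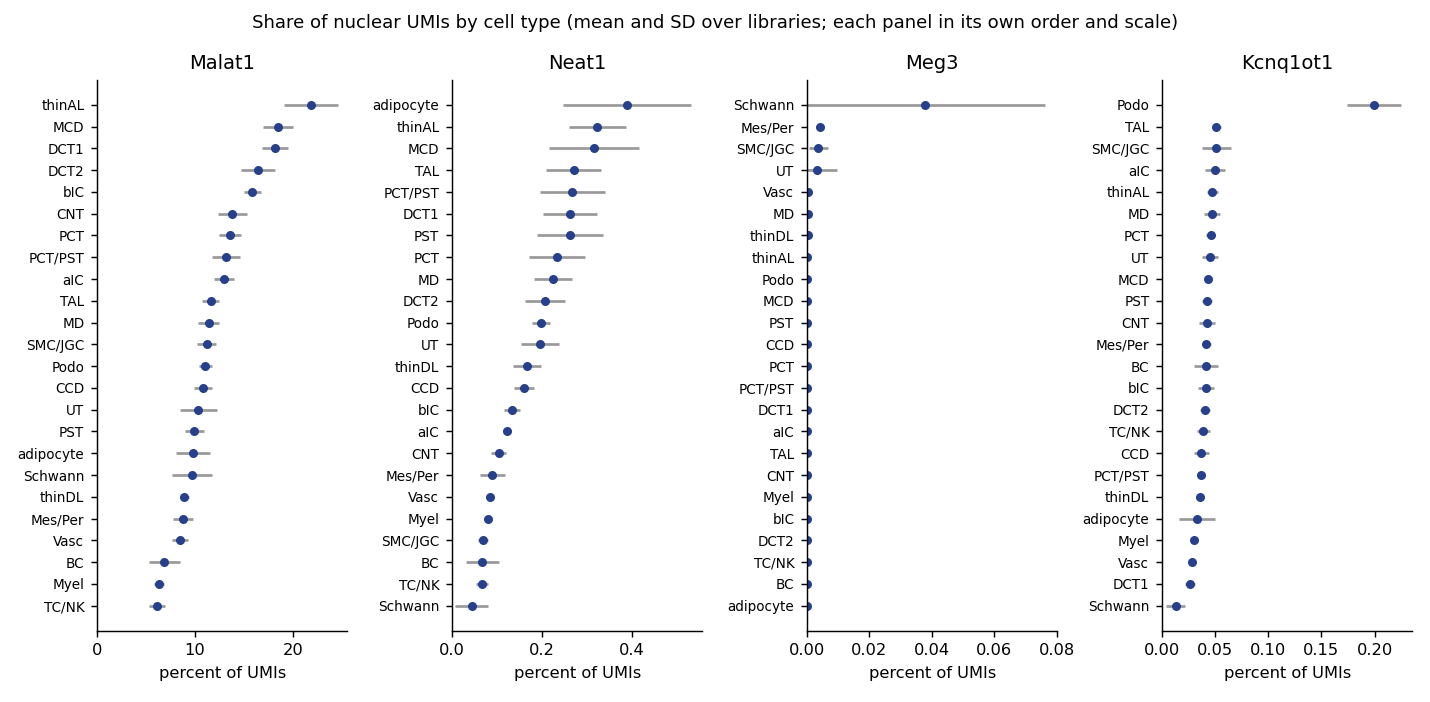
Percent of nuclear UMIs of the 4 lncRNAs in each named class (points are means over libraries, lines their SD, and each panel has its own order and scale). Malat1 is highest in thinAL, MCD and DCT1, Neat1 in the rare adipocyte-like class and then in thinAL and MCD, Meg3 in the rare Schwann-like class, and Kcnq1ot1 stands apart in Podo.

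The genes most like Malat1 across the 24 classes (Pearson r of log2(CPM + 1) class means, genes with at least 500 UMIs) were Gm14393 (r = 0.77), Gm29417 (0.75), Gm14391 (0.75), Yap1 (0.73), a transcriptional co-activator of the Hippo pathway, and Gm47271 (0.72). Malat1 and Neat1 correlated with r = 0.60 over the classes. The classes come from the same 8 libraries and these values are descriptions.

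Neat1 was higher in most epithelial classes than in the stromal, endothelial and immune classes taken as a whole. Mes/Per was mixed. In single libraries its cluster 3 held 0.0313 to 0.0444%, cluster 10 0.101 to 0.149% and cluster 21 (1033 nuclei) 0.142 to 0.301%. The PCT mean of 0.234% lies within the range of cluster 21. Among classes with nuclei in every library it was highest in thinAL (0.324 ± 0.0631%), MCD (0.316 ± 0.100%), TAL (0.271 ± 0.0604%), PCT/PST (0.268 ± 0.0725%), DCT1 (0.263 ± 0.0597%) and PST (0.262 ± 0.0737%). It was lowest in Schwann (0.0444 ± 0.0367%), TC/NK (0.0672 ± 0.0141%), BC (0.0679 ± 0.0359%) and SMC/JGC (0.0690 ± 0.0102%), and low in Vasc (0.0850 ± 0.00903%). The intercalated classes (aIC 0.123 ± 0.00911%, bIC 0.134 ± 0.0179%) and CNT (0.104 ± 0.0165%) had lower means than the other tubule classes. CCD exceeded bIC by 0.0270 ± 0.0338 percentage points, in 6 of 8 libraries, which is not beyond the SD. DCT2, with 0.208 ± 0.0443%, lay between DCT1 and CNT. The adipocyte-like class had 0.390 ± 0.142%, but only 76 nuclei in 6 libraries, of which 25 and 41 came from the cKOt_ZT4 libraries. Only 3 of the 23 pairs of neighbours in the order differed beyond the SD of their difference. The genes with the most similar class pattern were Ccdc191 (r = 0.83), Wdr93 (0.82), Gm14296 (0.81), 1110019D14Rik (0.81) and Ankrd42 (0.81).

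Within cell types, 460 tests of the 4 lncRNAs were possible in the 21 classes with at least 10 nuclei in every library, and 1 passed: Neat1 rose at ZT16 in TAL, averaged over both genotypes. Of all gene and class tests, 0.34% passed for time in Ctrl, 0.131% for time in cKOt, 0.29% for genotype at ZT4, 0.164% for genotype at ZT16, 0.906% for the mean time effect, 0.603% for the mean genotype effect and 0.0241% for the interaction. A single call among 460 tests is near these shares, so it does not set the 4 lncRNAs apart from other genes. In TAL nuclei Neat1 took 0.241 and 0.200% in Ctrl_ZT4, 0.246 and 0.199% in cKOt_ZT4, 0.335 and 0.363% in Ctrl_ZT16 and 0.304 and 0.278% in cKOt_ZT16. All 4 libraries at ZT16 lay above all 4 at ZT4. How often other genes keep the libraries apart in this way was not determined, here or for the other classes below. The mean log2 difference was 0.54 (SE 0.11, edgeR adjusted p = 0.0129), in a contrast in which 3.79% of the 15552 genes tested in TAL were called. TAL is the segment that reabsorbs sodium, potassium and chloride through Slc12a1, and it is among the tubule segments in which Cre is induced.

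The time difference in TAL was 0.67 in Ctrl (SE 0.16, adjusted p = 0.0544, and 0.00215 to 0.293 over the alternatives, where 1.11% of genes were called) and 0.40 in cKOt (SE 0.16, adjusted p = 0.350, where 0.563% were called), and the difference between them was -0.27 (SE 0.22), so that the 2 genotypes could not be told apart. The call was lost without Ctrl_ZT4 replicate 2 (adjusted p = 0.0667), cKOt_ZT4 replicate 2 (0.0885) or cKOt_ZT16 replicate 1 (0.0666), with estimates of 0.48, 0.47 and 0.51, and over all alternatives the adjusted p ran from 0.000113 to 0.0885. TAL consisted of 2 clusters. In the larger, Neat1 was 0.207 to 0.260% at ZT4 and 0.302 to 0.407% at ZT16, with no overlap, and in the smaller 0.183 to 0.270% at ZT4 and 0.243 to 0.297% at ZT16, which overlap.

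No gene of a paraspeckle protein passed beside Neat1 in TAL, where 3.79% of all genes were called, so that counts of 0 or 1 in lists of this size are near the background. Of the 15 tested for the mean time effect 0 passed, with a list median of -0.01 beside 0.01 over all genes, and Sfpq (-0.04, SE 0.10), Pspc1 (0.09, SE 0.10) and Nono (0.08, SE 0.10) lay near 0. None of the 14 nuclear speckle and splicing genes passed (median 0.09). Of 10 other nuclear lncRNAs tested in TAL 1 passed, Pvt1, a lncRNA beside Myc, which fell at ZT16 (log2 -0.78, SE 0.18, adjusted p = 0.0211). Malat1 differed by -0.06 in the same contrast. Kcnq1ot1 was 0.0426 to 0.0511% at ZT4 and 0.0542 to 0.0558% at ZT16 in TAL, without overlap, but its difference of 0.22 (SE 0.09, adjusted p = 0.206) did not pass.

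**Figure D3:**
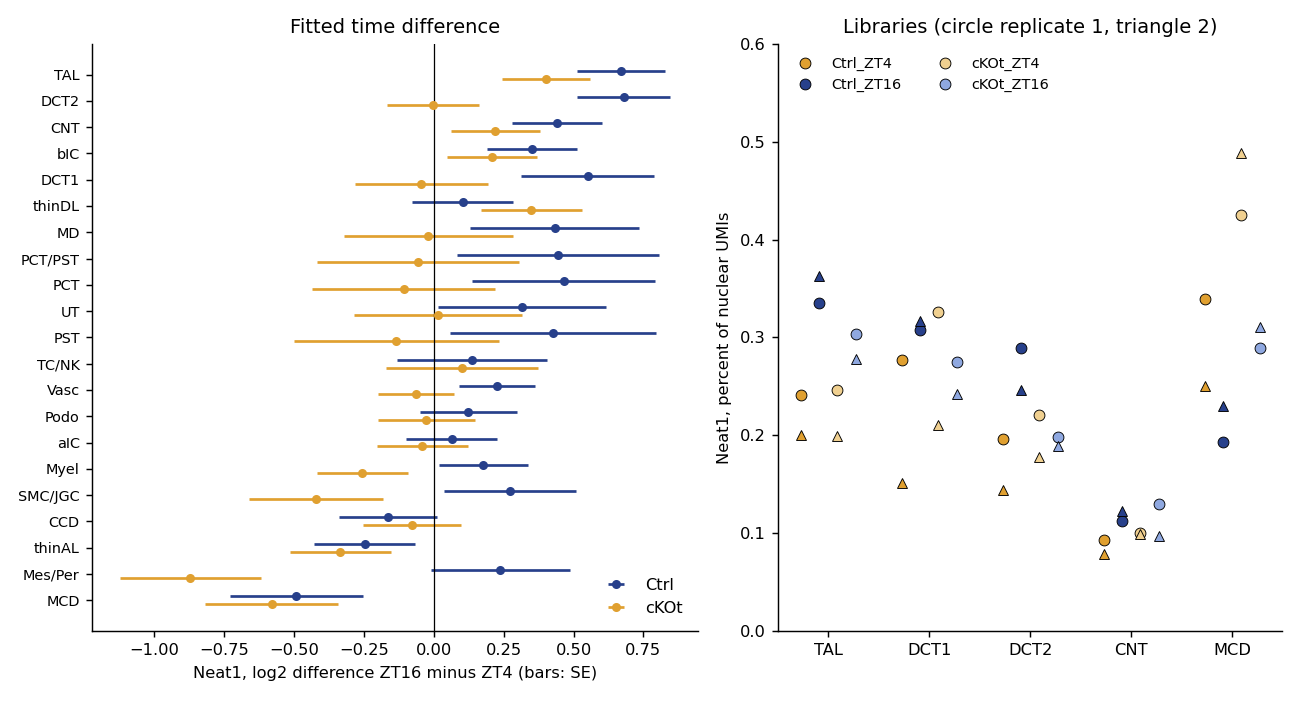
Left, the fitted log2 difference of Neat1 between ZT16 and ZT4 in each of the 21 classes, for Ctrl and cKOt (lines are SE). Right, Neat1 as percent of nuclear UMIs by library (points) and group in TAL, DCT1, DCT2, CNT and MCD. In TAL all libraries at ZT16 (0.278 to 0.363%) lie above all at ZT4 (0.199 to 0.246%), in DCT2 only those of Ctrl do so, and in MCD the cKOt libraries lie above the Ctrl libraries of the same time point.

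In other classes the Neat1 differences did not pass, but some passed under an alternative. In DCT2 Neat1 was 0.197 and 0.144% in Ctrl_ZT4 and 0.289 and 0.246% in Ctrl_ZT16 (log2 0.68, SE 0.17, adjusted p = 0.0557, and 0.00593 to 0.489 over the alternatives), and 0.221 and 0.178% in cKOt_ZT4 and 0.198 and 0.189% in cKOt_ZT16 (0.00), with a difference between the genotypes of -0.68 (SE 0.23, adjusted p = 1.00). The DCT2 difference in Ctrl passed with the replicate block (0.00593) and without cKOt_ZT4 replicate 1 (0.0447) or 2 (0.0408), and the mean time difference of DCT2 (0.34, adjusted p = 0.157) passed with the block (0.0333). In bIC, the other class in which the time points did not overlap, Neat1 was 0.110 to 0.128% at ZT4 and 0.136 to 0.163% at ZT16 (mean 0.28, SE 0.11, adjusted p = 0.771). In CNT the mean time difference was 0.33 (SE 0.11, adjusted p = 0.190). In MCD Neat1 was 0.339 and 0.250% in Ctrl_ZT4, 0.425 and 0.489% in cKOt_ZT4, 0.193 and 0.230% in Ctrl_ZT16 and 0.289 and 0.310% in cKOt_ZT16. The direction in MCD was opposite to that in TAL, with lower values at ZT16 in both genotypes (mean -0.54, SE 0.17, adjusted p = 0.433), and higher in cKOt (mean 0.59, SE 0.17, adjusted p = 0.834). Libraries held between 85 and 539 MCD nuclei, and the part of this in the values was not tested. The difference between MCD and TAL was not tested either. In thinAL Neat1 was 0.45 higher in cKOt (SE 0.13, adjusted p = 0.200, and 0.0481 with 50 principal components).

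The spread of Neat1 between mice went along with the summed level of a list of stress and immediate early genes. The summed CPM of 12 such genes (Fos, Fosb, Jun, Junb, Atf3, Egr1, Ier2, Hspa1a, Hspa1b, Dnajb1, Hsp90aa1 and Hsph1) over all nuclei was 392 and 198 in Ctrl_ZT4, 655 and 242 in cKOt_ZT4, 352 and 435 in Ctrl_ZT16 and 496 and 330 in cKOt_ZT16. In 4 of 4 groups the replicate with the higher sum also had the higher Neat1. Over the 8 libraries Pearson's r with Neat1 was 0.95 (exact permutation test, two-sided, p = 0.000546, adjusted p = 0.00218 over the 4 lncRNAs) and Spearman's rho was 0.95 (exact permutation p = 0.00114, adjusted p = 0.00456), and r was 0.85 without the 2 libraries farthest from the median sum. For Malat1 (r = 0.22), Meg3 (0.53) and Kcnq1ot1 (-0.22) no such relation was found (lowest adjusted exact permutation p = 0.384), and without the 2 farthest libraries their r turned to -0.53, -0.58 and 0.54. The genes of the list did not all follow Neat1. In Ctrl_ZT16 the heat shock genes Hsph1 (58.7 and 131 CPM) and Hsp90aa1 (101 and 127) were higher in replicate 2, as Neat1 was. Hspa1a, Hspa1b, Dnajb1, Fosb and Atf3 were so too. Fos (8.96 and 6.80), Jun (48.6 and 35.0), Junb (34.9 and 27.8), Egr1 (64.1 and 58.5) and Ier2 (14.6 and 12.9) were higher in replicate 1. The relation of the sum with Neat1 was looked at after the library values had been seen. How often other genes or lists follow Neat1 over the libraries was not determined. The summed CPM of the 15 paraspeckle protein genes was 1793 and 1735 in Ctrl_ZT4 and 1971 and 1837 in cKOt_ZT4. The same sum was 1847 and 1840 in Ctrl_ZT16 and 1845 and 1849 in cKOt_ZT16. With the median UMIs per nucleus Neat1 had r = -0.27, and -0.73 without the 2 libraries farthest from the median. The labels name no batch, and none of the 12 genes passed the test in any contrast over all nuclei. The exact permutations shuffled all 8 libraries freely and took no account of the 4 groups. The part of these 12 genes in the Neat1 values was not tested.

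Among the 21 classes, the replicate with the higher stress sum had the higher Neat1 in 4 of 4 groups in 9 classes, TAL and PCT included, but the relation was uneven: r over the 8 libraries was 0.92 in PCT, 0.94 in PCT/PST, 0.30 in TAL and -0.21 in Mes/Per, where the sum was 462 to 1329 CPM and 1 of 4 groups had the same order. In PCT the sum was 323 and 128 CPM in Ctrl_ZT4, 557 and 229 in cKOt_ZT4, 269 and 334 in Ctrl_ZT16 and 424 and 354 in cKOt_ZT16, and Neat1 was 0.213 and 0.152%, 0.348 and 0.172%, 0.218 and 0.284%, and 0.262 and 0.220%. In TAL the sum was 188 and 180 CPM in Ctrl_ZT4, 416 and 154 in cKOt_ZT4, 249 and 256 in Ctrl_ZT16 and 281 and 184 in cKOt_ZT16. In Ctrl the sum in TAL was higher at ZT16 than at ZT4, as Neat1 was, while in cKOt the time points overlapped, and the part of these genes in the Neat1 difference of TAL was not tested.

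Meg3 was found mainly in stromal nuclei and was near 0 in the tubule. Mes/Per held 63.8% of all Meg3 UMIs (982) with 11% of the nuclei, at a level of 0.00420 ± 0.00122% (n = 8). SMC/JGC reached 0.00368 ± 0.00319%, and the rare Schwann-like class, with 53 UMIs in 49 nuclei, 0.0379 ± 0.0383%. Vasc held 0.000328 ± 0.000253%, and TAL 3.3e-05 ± 2.3e-05%. No UMI was found in TC/NK (0 of 502 nuclei, which allows a share of up to 0.598% of nuclei with a UMI), BC (0 of 182, up to 1.65%) or the adipocyte-like class (0 of 76, up to 3.95%). These limits cover counting error only. A Meg3 UMI was found in 4.05% of Mes/Per nuclei at a median depth of 2345 UMIs, and in 0.151% of PCT nuclei at 4803.5 UMIs. Whether PCT nuclei themselves express Meg3 was not tested. After thinning every nucleus to 1000 UMIs the shares were 2.31 and 0.0390%. The genes with the most similar class pattern were Adamtsl5 (r = 0.92), Casp12 (0.91), Dact3 (0.89), Nkd2 (0.88) and Tmem198b (0.87).

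Within Mes/Per, nuclei with Meg3 more often held a UMI of its cluster neighbours than nuclei without it, although most of them held none of Rian. Rian was found in 26.5% of the 362 Mes/Per nuclei with Meg3 and in 0.362% of the 8567 without, at median depths of 2701 and 2334 UMIs. In single libraries these shares were 18.2 to 46.8% and 0.0855 to 0.621%, and Mirg was found in 6.35 and 0.0467%. Dlk1, a paternally expressed gene of the cluster, was found in 1 of the 362 nuclei. Deeper nuclei are more likely to show any gene, and the depths of both kinds of nuclei are given for that reason.

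**Figure D4:**
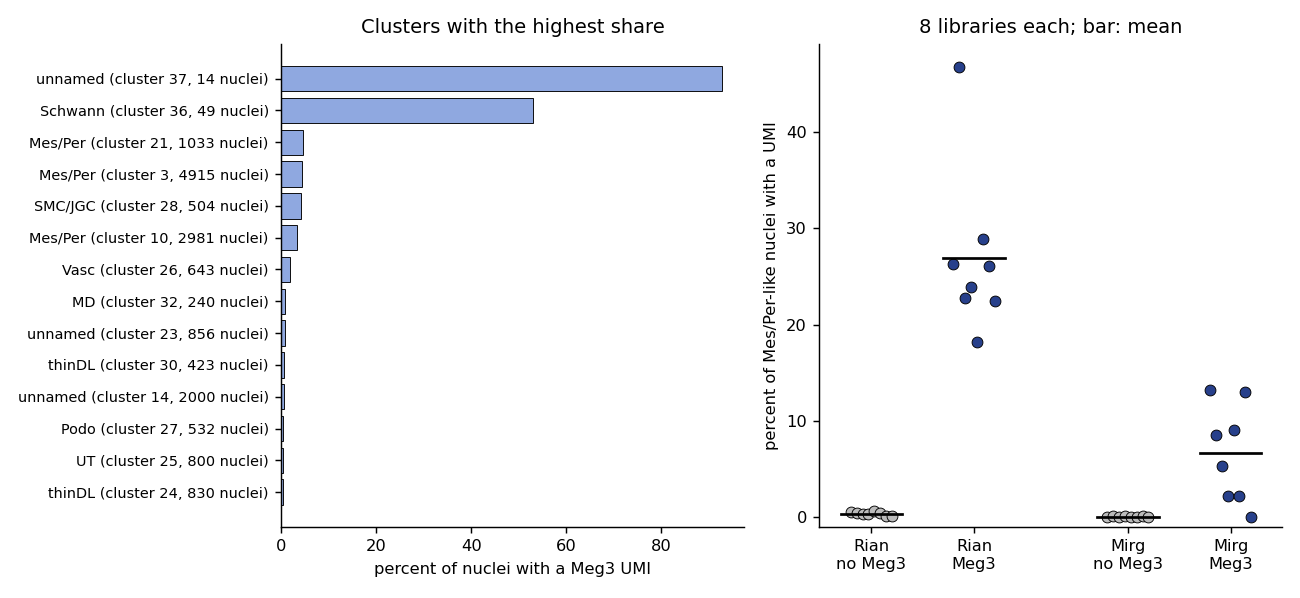
Left, percent of nuclei with a Meg3 UMI in the 14 clusters with the highest share, with their numbers of nuclei. Right, percent of Mes/Per nuclei with a UMI of Rian or Mirg among nuclei without and with Meg3, where points are the 8 libraries and the line is their mean. The Schwann-like cluster of 49 nuclei and an unnamed one of 14 stand above the rest, and Rian lies at 18.2 to 46.8% with Meg3 and at 0.0855 to 0.621% without.

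Few nuclei were rich in Meg3. Of 579 nuclei with a UMI, 300 had 1 and 17 had 10 or more, which together held 324 UMIs. The highest was a UT nucleus of a cKOt_ZT4 mouse with 94 Meg3 UMIs of 17094, with 18 UMIs of Rian and 92 of Upk1b, a urothelial plaque gene. The next was a UT nucleus of a cKOt_ZT16 mouse with 30 of 4259, 5 of Rian and 21 of Upk1b, and the third a Mes/Per nucleus with 21. UT held 125 Meg3 UMIs, 94 and 31 in the libraries of these nuclei and 0 in the other 6.

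In Mes/Per, Meg3 made up 0.00378 and 0.00389% in Ctrl_ZT4 (90 and 148 UMIs), 0.00623 and 0.00552% in cKOt_ZT4 (139 and 145), 0.00487 and 0.00349% in Ctrl_ZT16 (176 and 104) and 0.00268 and 0.00317% in cKOt_ZT16 (82 and 98). The cKOt libraries at ZT4 were the highest of the 8 and those at ZT16 the lowest. The difference between them was -1.03 (SE 0.20, adjusted p = 0.0528 by edgeR and 0.0319 by DESeq2, in a contrast with 0.407% of 14258 genes called), with a range of 0.0319 to 0.564 over the alternatives. In Ctrl it was 0.07 (SE 0.20), and the interaction was -1.10 (SE 0.28, adjusted p = 0.434). Cre is induced in tubules and not in Mes/Per, and Arntl was 0.39 higher in cKOt at ZT4 and 0.30 at ZT16 in this class (SE 0.20 each, mean 0.34, adjusted p = 0.949), which did not pass. In the largest of its clusters Meg3 was 0.00784 and 0.0108% in cKOt_ZT4 and 0.00307 and 0.00397% in cKOt_ZT16. The makeup of Mes/Per differed too. This cluster made up 47.6 and 33.9% of its nuclei in cKOt_ZT4 and 69.7 and 62.0% in cKOt_ZT16. In cluster 10 of Mes/Per, Meg3 was 0.00571 and 0.00406% in cKOt_ZT4 and 0.00179 and 0.00148% in cKOt_ZT16. These values lay below those of the largest cluster in each library. The part of the makeup in the Meg3 difference was not tested. Cluster 21, the one rich in Neat1, made up 15.1 and 22.5% of Mes/Per nuclei in cKOt_ZT4 and 3.91 and 10.3% in cKOt_ZT16. The Neat1 difference in Mes/Per was -0.87 (SE 0.25, edgeR adjusted p = 0.195), and the part of cluster 21 in it was not tested.

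Kcnq1ot1 was highest in podocyte-like nuclei and low in all other classes. Podo held 0.200 ± 0.0251% (n = 8), and the next class, TAL, 0.0513 ± 0.00467%, a difference of 0.148 ± 0.0254 percentage points with Podo higher in 8 of 8 libraries. The Podo libraries held 0.171 and 0.229% in Ctrl_ZT4, 0.182 and 0.182% in cKOt_ZT4, 0.192 and 0.228% in Ctrl_ZT16 and 0.230 and 0.182% in cKOt_ZT16, while the highest library of any other class held 0.0817% (SMC/JGC). Below Podo the levels fell from TAL through SMC/JGC (0.0512 ± 0.0134%), aIC (0.0499 ± 0.00932%) and PCT (0.0457 ± 0.00396%) to Vasc (0.0283 ± 0.00337%), DCT1 (0.0263 ± 0.00504%) and Schwann (0.0128 ± 0.00912%), and only 2 of 23 neighbour pairs differed beyond the SD of their difference, Podo from TAL and DCT1 from Schwann. Podocytes, the filtering cells of the glomerulus, made up 0.654% of nuclei and held 3.0% of Kcnq1ot1 UMIs. A UMI was found in 97.1% of Podo nuclei and in 70.1% of TAL nuclei, at median depths of 3870.5 and 3855 UMIs. After thinning the shares were 80.8% in Podo, 36.1% in TAL and 21.2% in DCT1, and no class lacked the gene, so a share in a class known to be without it cannot be given. The genes with the most similar class pattern were Gm3772 (r = 0.80), Ccdc73 (0.80), Rab3b (0.80), Eif3m (0.79) and Wsb2 (0.79).

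The Kcnq1 locus gave different patterns for the overlapping pair. Kcnq1, a potassium channel gene, was highest in aIC (828 ± 137 CPM) and CNT (728 ± 65.8 CPM), was 511 CPM in bIC and 126 CPM in TAL, and was low in Podo (18.4 ± 9.83 CPM). Cdkn1c, which Kcnq1ot1 is known to silence on the paternal allele, was highest in Podo (224 ± 58.5 CPM) and 7.38 CPM in Mes/Per, the next class. Cdkn1c was one of the markers by which Podo was named, so its level there is no finding, and the counts hold no information on the allele. The sources used here do not give whether counting used the strand or introns, so reads of Kcnq1ot1 and of Kcnq1 introns may not be separable, and the part of this in the values was not tested. The class with the most Kcnq1, aIC, ranked 4th of 24 for Kcnq1ot1, and Podo, which ranked first, was low in Kcnq1. Between genotypes the Kcnq1ot1 libraries did not overlap in PST, PCT/PST and thinDL, all lower in cKOt. In PST they held 0.0482 and 0.0453% in Ctrl_ZT4, 0.0431 and 0.0410% in cKOt_ZT4, 0.0453 and 0.0468% in Ctrl_ZT16 and 0.0362 and 0.0350% in cKOt_ZT16. The mean genotype difference of Kcnq1ot1 was -0.22 in PST (SE 0.12, adjusted p = 0.541), -0.20 in PCT/PST (SE 0.11, adjusted p = 0.590) and -0.22 in thinDL (SE 0.13, adjusted p = 0.766), so none passed. How often the libraries of other genes do not overlap between genotypes was not determined. In the main clustering the largest share of nuclei from 1 library was 14.1% in PST and 27.9% in a PCT/PST cluster. It was 51.6% in a PCT cluster. With 50 principal components the largest share reached 83.4% in a PST cluster and 96.1% in a PCT cluster. In unnamed clusters whose best list was PCT or PST it reached 99.3%. No PCT/PST class arose with 50 principal components, so results in PCT/PST have no value under that alternative. In Podo no contrast of Kcnq1ot1 passed, all lying within 0.19 of 0 on the log2 scale (SE 0.13 to 0.26).

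**Figure D5:**
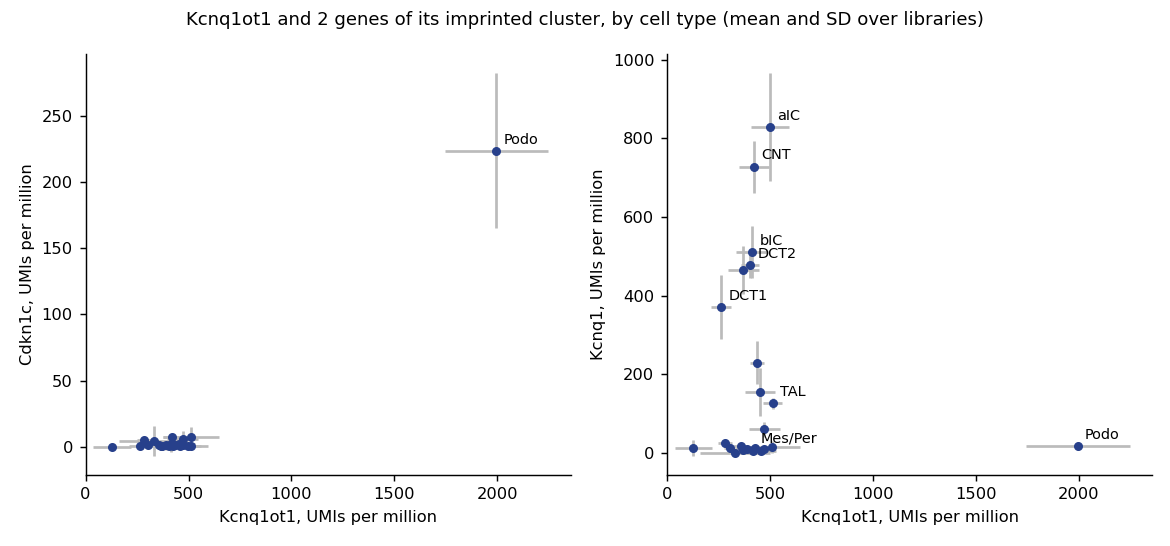
CPM of Kcnq1ot1 (horizontal axis) against Cdkn1c (left) and Kcnq1 (right), genes of the same imprinted cluster. Each point is the mean of 1 class, with lines for the SD over libraries. Podo lies far to the right of every other class, with 224 CPM of Cdkn1c and 18.4 CPM of Kcnq1.

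Over all nuclei, other genes of the pathways and loci were tested in the same contrasts, with lists chosen when earlier results were known. Between 0.00955 and 0.988% of all genes were called in these contrasts, so that few or no calls are the background for lists of this size. None of the 15 paraspeckle protein genes, the 14 speckle and splicing genes, the 7 genes of the Neat1-Malat1 locus, the genes of the Kcnq1 cluster (10 or 11 of 11 tested), the 12 stress genes or the genes of the Dlk1-Dio3 cluster (1 or 2 of 5 tested) passed in any contrast. For the mean genotype effect the list medians were 0.14, 0.12, 0.03, -0.03, 0.33 and -0.51, beside -0.01 for all genes tested. Of up to 14 other nuclear lncRNAs and 8 other imprinted genes tested, 1 gene that stands in both lists passed, in the mean time effect (0.891% of all genes called), Airn, the antisense lncRNA that silences Igf2r in cis. Airn was 319, 328, 302 and 295 CPM in the ZT4 libraries and 219, 210, 199 and 219 CPM in the ZT16 libraries, with no overlap (mean log2 difference -0.55, SE 0.08, adjusted p = 0.0238). In this contrast it also fell in PCT (-0.85, adjusted p = 0.00970, where 1.33% of genes were called) and PCT/PST (-0.88, adjusted p = 0.0193, where 0.545% were called), and passed in no other class in which it was tested. Airn overlaps Igf2r, so the limit on strands holds for it too.

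RefSeq promoters (GRCm38.p6, 250 bases before to 50 after the start) were at hand for Malat1, Meg3 and Kcnq1ot1. None held an E-box (CACGTG, found in 7.15% of 32851 promoters), a D-box (TTATGTAA or TTACGTAA, 1.056%) or a ROR element (0.2192%) on either strand. These letters are absent from these windows, which says nothing of the factors that bind elsewhere.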

How the data were processed

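Single-nucleus RNA-seq of 8 mouse kidneys was analysed, 2 per group of genotype and time point, with groups taken from the sample labels. The authors demultiplexed reads with bcl2fastq 2.20, counted UMIs with Cell Ranger 7.1.0 and used Seurat 5, per the labels and methods, and deposited raw UMI counts per gene and called barcode. The methods name an mm10 reference (GRCm38) and the labels list GRCm39. The gene rows are those of the mm10 reference, so coordinates are given in GRCm38 and sequences, by transcript name, from GENCODE vM39 on GRCm39. Settings for introns and strand are not given in the sources used here.

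A nucleus needed 500 genes and 800 UMIs, of which no more than 2% could be mitochondrial. Mitochondrial genes were then left out. Scrublet marked 5.37% as doublets, which were kept and left out in an alternative. Nuclei were clustered with scanpy 1.11.5 on protein-coding genes (2000 variable genes, 1000 principal components, 20 neighbours, resolution 2.2). Of 38 clusters 34 were named, each where the mean z of a marker list reached 1.4 and 3 or more markers were 2-fold higher. Doublets had to be under 50% and nuclei 20 or more. No other list could hold more of the 10 genes most raised in the cluster. By this last rule cluster 14 (2000 nuclei, best list thinAL, mean z 1.73) stayed unnamed, with 0 thinAL markers and 2 of another list among those genes. These limits were chosen with the clusters in view. The members and lists were chosen with earlier results of these data known.

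UMIs were added up over the nuclei of a library, and over those of a class in a library. The 4 groups were fitted in 1 model with edgeR 4.0.16 (TMM, quasi-likelihood), for genes that had 5 or more UMIs in both mice of some group. Benjamini-Hochberg adjustment ran over all genes of a contrast, and the limit was 0.05. The p-values measure the spread between mice. Named are the members, genes of the lists that passed or that a member's locus turns on, the 5 genes of the most similar class pattern, the 10 lncRNAs with most UMIs, and Arntl. Alternatives were DESeq2 1.42.0, other scalings, filters and denominators, lncRNAs alone, equal class weights, 50 principal components, a replicate block and each library left out. Added after seeing the data were a fit without the 2 nuclei richest in Meg3, a crossed block, libraries left out within classes, and the relation with stress genes. The pipeline was tested on simulated data. Other software was Python 3.11.15, numpy 2.4.6, scipy 1.17.1, pandas 2.3.3, R 4.3.3 and limma 3.58.1.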

Additional observations from a re-analysis of the deposited data

How the results depend on the processing

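Over all nuclei no alternative brought a member past the threshold, and with all libraries 309 values kept their direction. The 20 that turned are given here, and the cause was not tested. With lncRNAs alone in the fit, the time difference in Ctrl became 0.05724 for Meg3 and 0.06953 for Malat1, the mean time difference of Malat1 0.003616, and the interaction -0.1265 for Kcnq1ot1 and -0.1318 for Malat1. With equal weights of the cell types, the time difference was 0.07855 for Meg3 in Ctrl and 0.0002258 for Malat1 in cKOt. Kcnq1ot1 between genotypes was -0.07798 at ZT4, -0.05844 at ZT16 and -0.06821 on average without scaling, and -0.04996, -0.03575 and -0.04285 with equal weights. At ZT4 it was -0.005404 with Malat1 out of the library sizes, -0.002974 without a filter, -0.002133 without doublets and -0.003185 with all barcodes, and with at least 50 UMIs -0.02374 at ZT4 and -0.01026 on average. Without the 2 nuclei richest in Meg3, added after seeing the data, its mean genotype difference was -0.09375. The r of Malat1 with depth was 0.07904 without the 2 farthest libraries.

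Leaving out 1 library at a time, the time difference in Ctrl ran from -0.1838 to 0.07703 for Meg3 and from -0.1733 to 0.1041 for Malat1, and in cKOt from -0.0814 to 0.002985 for Malat1 and from -0.42 to 0.2992 for Neat1. The genotype difference at ZT4 ran from -0.006087 to 0.01462 for Kcnq1ot1 and from -0.04767 to 0.9824 for Meg3, at ZT16 from -0.007933 to 0.0396 for Kcnq1ot1 and from -0.1942 to 0.1666 for Neat1, and on average from -0.003844 to 0.01716 for Kcnq1ot1 and from -0.1601 to 0.355 for Meg3. The mean time difference of Malat1 ran from -0.1066 to 0.0321, and the interaction from -0.008178 to 0.04488 for Kcnq1ot1 and from -0.144 to 0.1334 for Malat1.

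Within cell types, the count of members called was 1 for the mean time effect (2 with the replicate block, Neat1 in TAL and DCT2, 0 to 1 with a library left out) and 0 elsewhere. It became 1 for time in Ctrl with DESeq2, without doublets or, at most, with a library left out, and 2 with the replicate block. It became 1 for time in cKOt with DESeq2, and 1 for the mean genotype effect with 50 principal components, Neat1 in thinAL. Neat1 in TAL gave a mean time difference of 0.542 with the replicate block, and ran from 0.4666 to 0.6203 with a library left out. Meg3 in Mes/Per between times in Ctrl ran from -0.1939 to 0.261. With 50 principal components Malat1 in TC/NK was 7.443%. With Malat1 out of the denominator Neat1 in thinAL was 0.4164% and Kcnq1ot1 in DCT1 0.03208%.

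Over 15877 genes the deviations of same-numbered libraries correlated with r = 0.45 between Ctrl and cKOt at ZT4, 0.44 at ZT16 and 0.21 between times in cKOt, but with -0.21 between times in Ctrl and -0.26 and 0.00 in the other pairs of groups. The labels name nothing that a number shares, so the numbers were not taken to pair the mice, although those of both genotypes at a time point deviated together. With the replicate block 97 in place of 94 genes were called between genotypes at ZT4, 29 in place of 30 at ZT16 and 204 in place of 213 on average. Between times in Ctrl it called 22 in place of 44 genes, and 96 with the numbers of Ctrl_ZT16 crossed. DESeq2 called 304. Libraries of 36548873 UMIs or more leave Meg3, with 1539 UMIs in all, testable in at most 3 classes.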

Other observations

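Of the 4 clusters that were not named, the smallest, cluster 37, had 14 nuclei, 13 of which held Meg3 (47 UMIs in all).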
